A study of Rattus norvegicus with 8 samples.

Results

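The 9 genes described here encode the core of transforming growth factor beta (TGF-beta) signalling: the ligands Tgfb1, Tgfb2 and Tgfb3, the receptors Tgfbr1, Tgfbr2 and Tgfbr3, and the intracellular proteins Smad2, Smad3 and Smad7. All probe sets of the Affymetrix rat genome array that the annotation gave to 1 of these symbols alone were taken. They number 14 of 31042 probe sets and cover 8 of the 9 genes, out of 14218 named genes on the array; no probe set was annotated to Tgfbr2. A probe set is a group of oligonucleotides on the array whose signals are combined into 1 value, and Smad7 has 3, Tgfb2, Tgfbr1, Tgfbr3 and Smad3 have 2 each, and the other genes have 1. Of the 14, 8 passed the filter on dim probe sets and were tested: both of Tgfb2, that of Tgfb3, 1 of Tgfbr1, that of Smad2, 1 of Smad3 and 2 of Smad7.

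TGF-beta ligands are secreted in a latent form bound to a carrier peptide and must be released from it before they can act. The freed ligand binds the type II receptor, Tgfbr2, which recruits and phosphorylates the type I receptor, Tgfbr1. Tgfbr1 then phosphorylates Smad2 and Smad3, which join Smad4 and enter the nucleus to regulate genes. Smad7 is induced by the pathway and inhibits it at the receptor, while Tgfbr3, also called betaglycan, is a co-receptor that presents ligand, Tgfb2 above all. In brain, the pathway is known for its part in microglial identity, in astrocyte responses and scarring, and in the response of astrocytes to serum albumin that crosses a leaky blood-brain barrier.

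The arrays measured RNA from the basolateral amygdala of rats (its lateral and basal nuclei), cut by laser from the temporal lobe on the electrode side. Control rats had been operated on but not stimulated; epileptogenic rats had been stimulated in the amygdala, had responded with status epilepticus (a prolonged seizure), and expressed no spontaneous seizures during the study. Every rat had 5 habituation sessions of 10 min, starting on day 5. On day 8 after stimulation every rat had 2 trials with a footshock of 1.5 mA for 1 s and a tone of 75 dB for 20 s, and tissue was taken 3 h later. In unpaired training the shock came before the tone, and in paired training the tone ended together with the shock. Crossing stimulation (control or epileptogenic) with training (unpaired or paired) gives 4 groups, each with 2 arrays lettered A and B. Each array carries amplified RNA pooled from 2 rats, so 16 rats are represented, and the strain, sex and age of the rats are not given in the sources used here. Since every rat met tone and shock 3 h before, a lasting difference between stimulated and control tissue and a different response to that session cannot be told apart.

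The deposited values are signal intensities, used here as log2 signal, on which a step of 1 is a doubling. Array medians of the signal lay between 29.0 and 43.2, lower on the B arrays (29.0 to 33.8) than on the A arrays (35.0 to 43.2). Arrays of the same letter also deviated together from their group means, with correlations between groups from 0.321 to 0.407. Values within each letter are therefore given beside the pooled ones. Of all 18625 probe sets tested with limma, 677 (3.63%) differed between epileptogenic and control arrays at an adjusted p under 0.05, and 523 (2.81%) were higher after stimulation. With the letter as a block the counts were 3022 (16.2%) and 1411 (7.58%).

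To show the regulatory sequence beside the measurements, the 250 bases before the annotated start were taken for Tgfbr1, the gene whose signal differed most here, and for Tgfb2, the ligand whose result depended on how the letter was treated. Both come from RefSeq on the GRCr8 build and are written 5′ to 3′ on the gene's strand, with capitals marking the GC box GGGCGG (or its reverse complement), letters known to bind the transcription factor Sp1. The Tgfbr1 stretch is chr5:66449148-66449397 on the plus strand and the Tgfb2 stretch is chr13:100792686-100792935 on the minus strand.
Tgfbr1: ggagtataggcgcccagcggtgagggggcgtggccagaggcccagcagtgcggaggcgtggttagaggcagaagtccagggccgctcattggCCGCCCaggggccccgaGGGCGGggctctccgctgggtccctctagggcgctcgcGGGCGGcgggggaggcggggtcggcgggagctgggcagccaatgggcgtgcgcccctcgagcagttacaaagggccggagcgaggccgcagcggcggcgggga
Tgfb2: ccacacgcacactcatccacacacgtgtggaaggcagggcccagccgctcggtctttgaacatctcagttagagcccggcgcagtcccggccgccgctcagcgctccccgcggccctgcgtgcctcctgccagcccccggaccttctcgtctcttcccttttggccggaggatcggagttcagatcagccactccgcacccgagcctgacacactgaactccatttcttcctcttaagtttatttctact
The Tgfbr1 stretch has a G+C content of 75.6% and 3 GC boxes, which begin at -158, -141 and -103 bases from the start, and that of Tgfb2 has 61.6% and none. All 9 genes matched the RefSeq table, with 10 windows that run from 250 bases before to 50 bases after a start. Searched on both strands, 7 of the 10 windows held a GC box, against 33.1% of all 33469 windows in the table. Smad2 has 2 of these windows, which overlap and share GC boxes, so by gene it was 6 of 9. None of the 10 held GTCTAGAC, the Smad palindrome (0.197% of all windows), CAGACA, the core of the CAGA box (21.1%), TGACTCA, the AP-1 site (4.63%), or TATAAA, the TATA box (14.2%). These are letter matches in a short window and not measured binding.

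Stimulation was the first comparison, which asks how the tissue of epileptogenic rats differed from that of controls. Of the 8 tested probe sets, 1 passed, that of the type I receptor Tgfbr1, and it rose (3.63% of all tested probe sets passed). No ligand, Smad or inhibitor probe set passed with all arrays fitted as 4 group means. The median log2 difference over the 8 was 0.14 and 5 of the 8 were above 0, beside a median of -0.11 over all tested probe sets. Among those above 0, Smad7 1368896_at had a control mean of 4.343, under the filter level of 4.345. It was tested only because its epileptogenic signal was higher, so the filter favoured its sign.

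Tgfbr1 is the kinase that passes the ligand signal to Smad2 and Smad3. On probe set 1376636_at the control arrays, in the order unpaired A, unpaired B, paired A and paired B, read 8.81, 9.32, 8.52 and 9.37 log2 units. The epileptogenic arrays in the same order read 10.44, 10.66, 10.38 and 11.01. Every epileptogenic array lay above every control array, which held for 1 of the 8 tested probe sets of these genes, while 7.29% of all tested probe sets were separated in that direction. The means were 9.0 ± 0.41 (SD, n = 4) and 10.62 ± 0.29 (SD, n = 4), a rise of 1.62 ± 0.25 (SE) on the log2 scale with a 95% interval from 1.06 to 2.18. That is a 3.08-fold higher signal (2.09 to 4.53), with an adjusted p of 0.0100 in limma. The rise was 1.75 within the A arrays and 1.49 within the B arrays. It stayed past the threshold when each of the 8 arrays was left out in turn, with values from 1.41 to 1.83.

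The other Tgfbr1 probe set, 1369504_at, did not show the same pattern. Its control arrays read 4.04, 4.51, 6.18 and 3.85 and its epileptogenic arrays 2.38, 4.66, 4.14 and 4.94, close to the filter level of 4.35, so that the groups overlapped. It was too dim on average for the main test. Without the filter its difference was -0.61 ± 0.68 (SE), with a 95% interval from -2.11 to 0.88. That interval lies below the whole interval of the bright probe set, so the result for Tgfbr1 rests on 1 of its 2 probe sets. The mean of both, an alternative added after seeing the data, differed by 0.50 ± 0.33 (SE; adjusted p = 0.468 in limma), which did not pass. On the array, 1376636_at was designed on an expressed sequence tag and 1369504_at on the RefSeq messenger RNA.

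**Figure D1:**
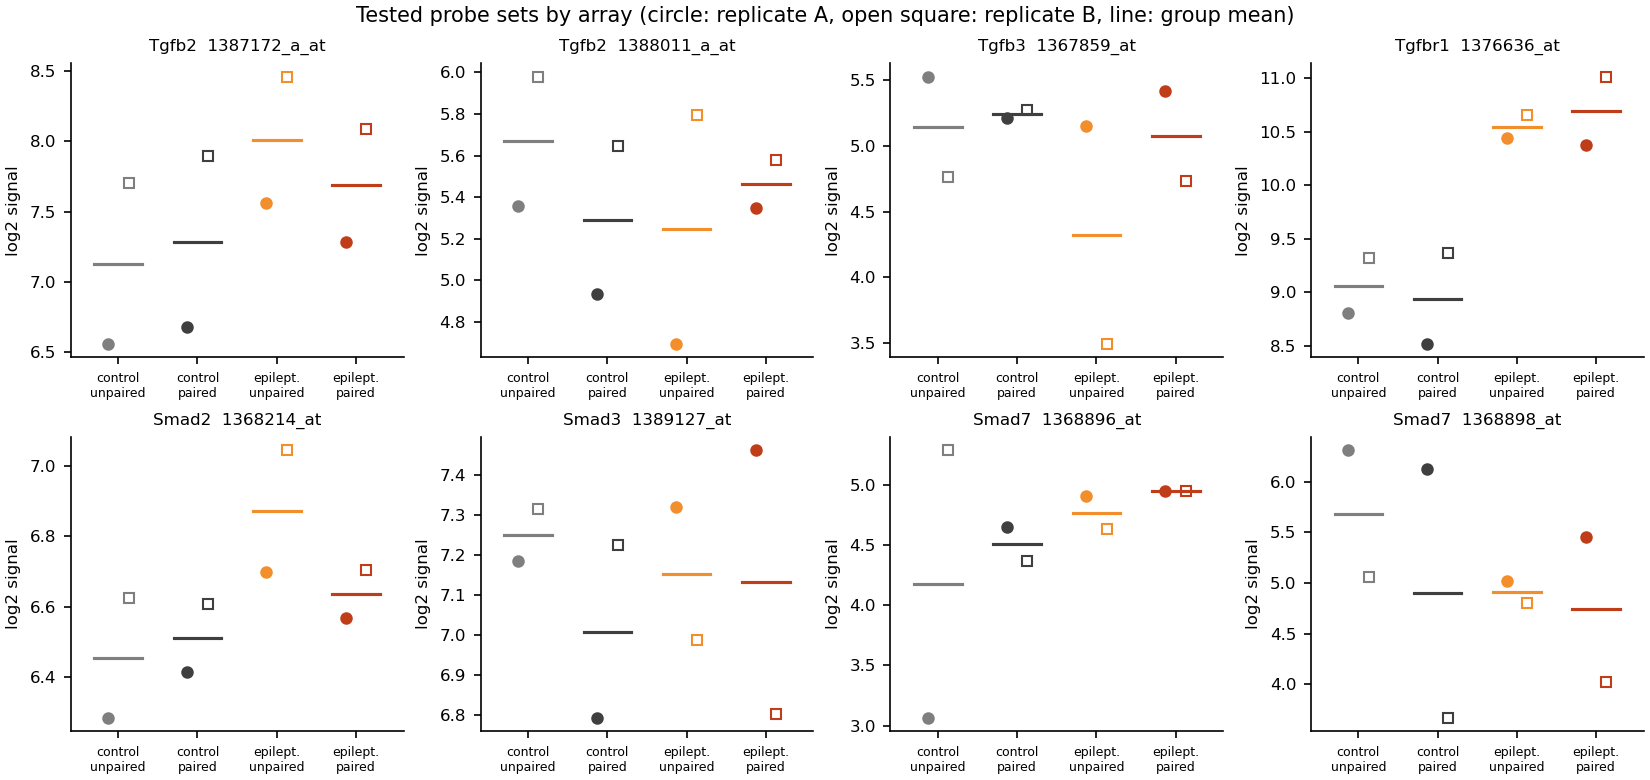
Log2 signal of the 8 tested probe sets (1 panel each, with its own vertical scale) on each of the 8 arrays. Filled circles are replicate A, open squares replicate B and lines the means of 2 arrays per group; Tgfbr1 1376636_at is the only panel in which all 4 epileptogenic arrays lie above all 4 control arrays.

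Among the ligands, Tgfb2 was read by 1387172_a_at, its brighter probe set. Its control arrays read 6.55, 7.70, 6.67 and 7.90 and its epileptogenic arrays 7.56, 8.46, 7.28 and 8.09. The highest values of both groups were B arrays, and the groups overlapped, but within each letter both epileptogenic arrays lay above both control arrays. The means were 7.21 ± 0.69 (SD, n = 4) and 7.85 ± 0.53 (SD, n = 4), and the B arrays exceeded the A arrays by 1.02 on average. The difference of 0.64 ± 0.38 (SE; 95% interval -0.22 to 1.51) did not pass in limma, with an adjusted p of 0.417. It was 0.81 within the A arrays and 0.48 within the B arrays. With the replicate letter as a block the SE was 0.15 and the adjusted p 0.0193, so that 2 of the 8 probe sets passed, both higher, while 16.2% of all tested probe sets passed in that fit and 7.58% passed and were higher. Across its other alternatives the adjusted p ran from 0.139 to 0.777, and none of them passed. Leaving out 1 array gave differences from 0.34 (without control paired A) to 0.95 (without control paired B), and the mean of both Tgfb2 probe sets gave 0.26.

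Within each letter, all epileptogenic arrays lay above all control arrays for 3 of the 8 tested probe sets, those of Tgfb2 (1387172_a_at), Tgfbr1 and Smad2; 11.4% of all tested probe sets did the same. The other Tgfb2 probe set, 1388011_a_at, had no such separation. Its control arrays read 5.36, 5.98, 4.93 and 5.65 and its epileptogenic arrays 4.69, 5.80, 5.35 and 5.58, a difference of -0.13 ± 0.35 (SE; 95% interval -0.92 to 0.67) that was also -0.13 within each letter.

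Tgfb3, the third ligand, read 5.52, 4.76, 5.21 and 5.27 in control arrays and 5.15, 3.49, 5.41 and 4.73 in epileptogenic arrays. A single array, epileptogenic unpaired B, lay under the rest, and the difference of -0.50 ± 0.44 (SE; 95% interval -1.50 to 0.50) did not pass (adjusted p = 0.605 in limma). It was -0.09 within the A arrays and -0.91 within the B arrays. Leaving out 1 array gave values from -0.91 (without epileptogenic unpaired A) to -0.08 (without epileptogenic unpaired B). Tgfb1, the ligand most often studied in injured brain, was at the bottom of the signal range on its only probe set, 1370082_at. Its log2 signals ran from -0.73 to 1.20 (signals of 0.602 to 2.30), under the filter level of 20.3 on all 8 arrays. Such values carry no usable difference, and a low signal on 1 probe set does not show that the RNA was absent.

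The co-receptor Tgfbr3 was also dim. Probe set 1387484_at ran from 2.20 to 5.31 and 1369219_at from 2.73 to 6.13, with group ranges that overlapped on both. Neither entered the main test. Without the filter their differences were 0.11 ± 0.67 (SE) and -0.83 ± 0.66 (SE), of opposite sign and with 95% intervals that include 0.

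**Figure D2:**
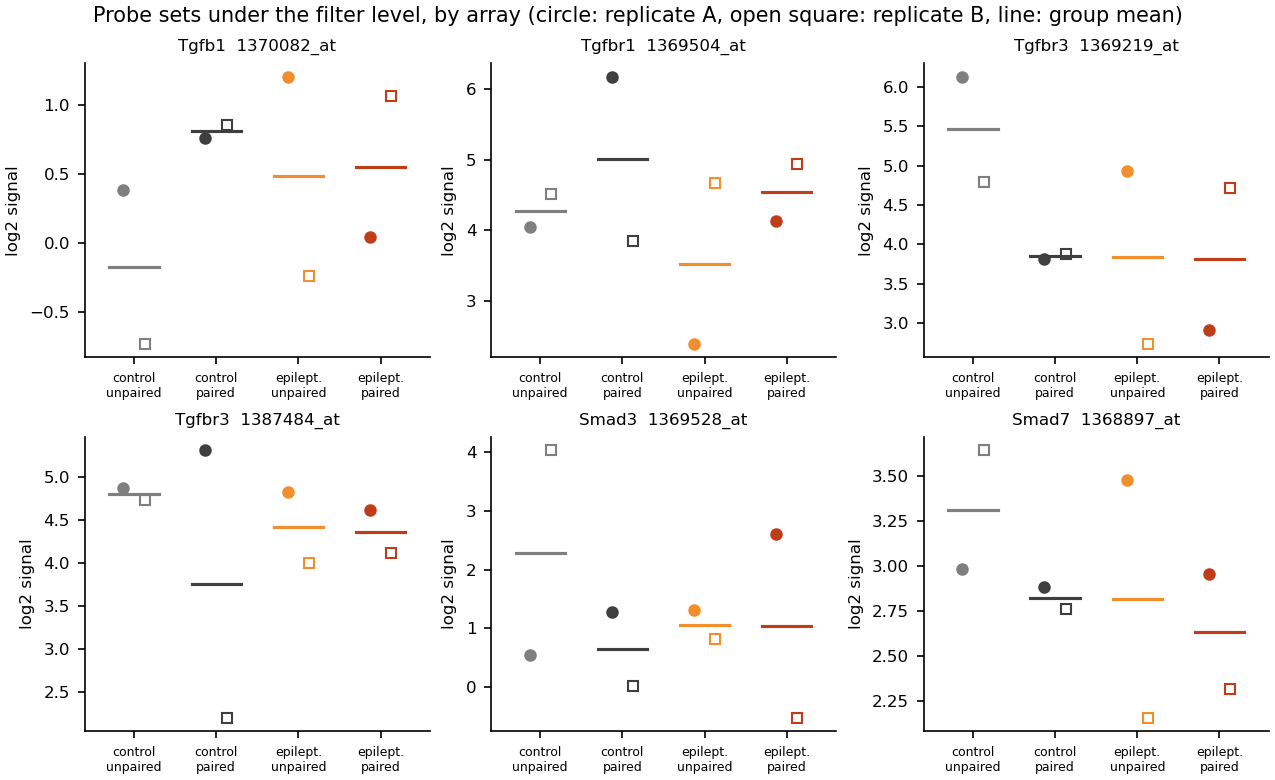
Log2 signal of the 6 probe sets under the filter level (mean log2 signal of 4.35 or less) on each array, for Tgfb1, Tgfbr1, Tgfbr3, Smad3 and Smad7. Filled circles are replicate A, open squares replicate B and lines group means of 2 arrays; control and epileptogenic arrays overlap in every panel.

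Smad2 and Smad3 are the proteins that the receptor activates. Smad2 read 6.29, 6.63, 6.42 and 6.61 in control arrays and 6.70, 7.04, 6.57 and 6.70 in epileptogenic arrays. The highest control values lay within the epileptogenic range, and the difference of 0.27 ± 0.22 (SE; 95% interval -0.22 to 0.75) did not pass (adjusted p = 0.557 in limma). That interval excludes a doubling of signal, and the difference was 0.28 within the A arrays and 0.26 within the B arrays. Smad3, on 1389127_at, read 7.19, 7.32, 6.79 and 7.22 in control arrays and 7.32, 6.99, 7.46 and 6.80 in epileptogenic arrays. Its difference was 0.01 ± 0.23 (SE), with a 95% interval from -0.51 to 0.54. This near-zero value is the mean of 0.40 within the A arrays and -0.37 within the B arrays. The dim Smad3 probe set, 1369528_at, ran from -0.53 to 4.04 and was not tested.

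The inhibitor Smad7 had 3 probe sets that did not move together. The brightest, 1368898_at, read 6.31, 5.06, 6.13 and 3.67 in control arrays and 5.02, 4.80, 5.46 and 4.02 in epileptogenic arrays, so the lowest value of each group was paired B. Its difference of -0.47 ± 0.59 (SE; 95% interval -1.79 to 0.86) did not pass, and it was -0.98 within the A arrays and 0.05 within the B arrays. The second, 1368896_at, read 3.07, 5.29, 4.65 and 4.37 in control arrays against 4.91, 4.63, 4.95 and 4.95 in epileptogenic arrays. Its difference was 0.51 ± 0.51 (SE), with 1.07 within the A arrays and -0.038 within the B arrays, and without control unpaired A, its lowest array, it was -0.040. The control mean of this probe set was just under the filter level, so it was tested only through its epileptogenic arrays. The third, 1368897_at, ran from 2.16 to 3.64 and was not tested.

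**Figure D3:**
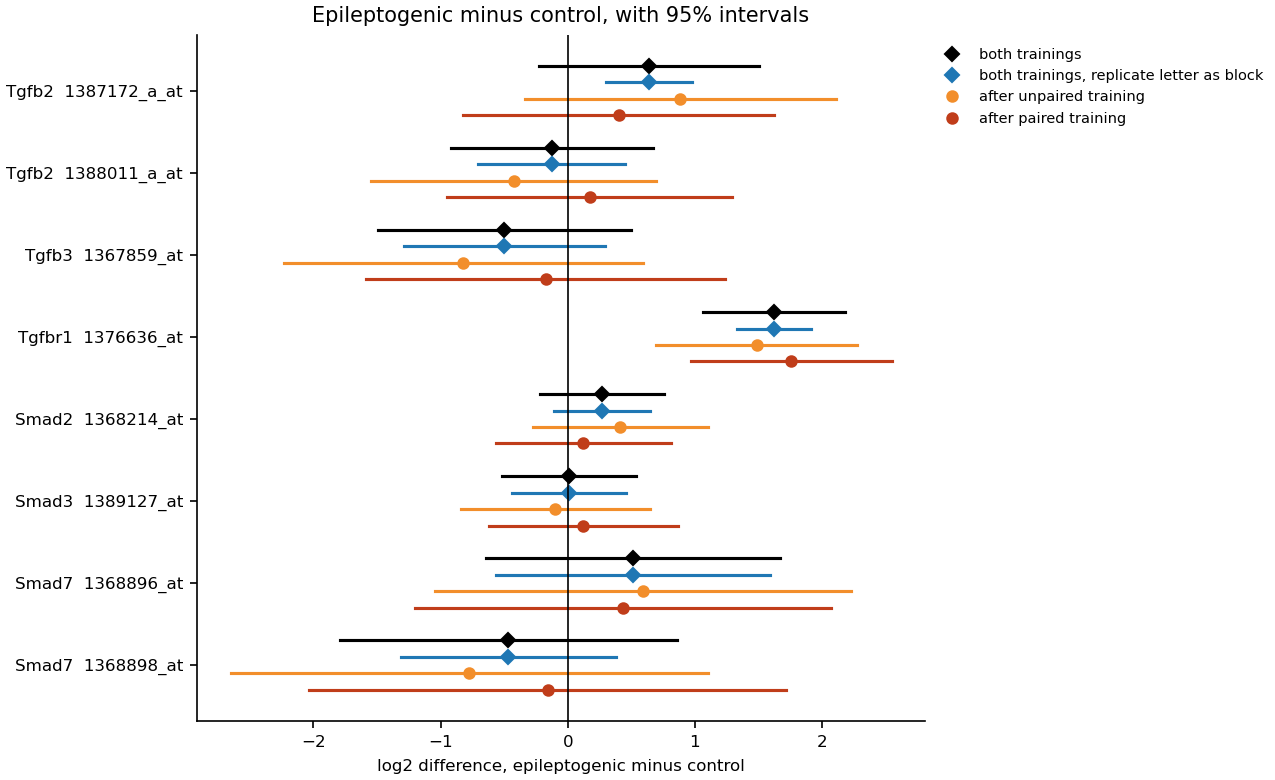
Log2 difference, epileptogenic minus control, of the 8 tested probe sets with 95% intervals from limma. Black diamonds use all 8 arrays, blue diamonds add the replicate letter as a block, and orange and red circles are the rats after unpaired and after paired training; for Tgfbr1 all 4 intervals lie above 0.

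Stimulated and control rats were next compared within each training. After unpaired training Tgfbr1 (1376636_at) had group means of 9.06 ± 0.36 (SD, n = 2) in control and 10.55 ± 0.15 (SD, n = 2) in epileptogenic rats, a difference of 1.49 ± 0.35 (SE) with an adjusted p of 0.135 in limma, which did not pass. After paired training the means were 8.94 ± 0.60 (SD, n = 2) and 10.70 ± 0.45 (SD, n = 2), a difference of 1.76 ± 0.35 (SE) with an adjusted p of 0.0760. None of the 8 probe sets passed in either training, where 0.317% and 0.532% of all tested probe sets did. With the letter as a block Tgfbr1 passed in both, with adjusted p of 0.00302 after unpaired and 0.00116 after paired training. In that fit Tgfb2 (1387172_a_at) also passed after unpaired training, by 0.88 with an adjusted p of 0.0390, and its value after paired training was 0.40 with an adjusted p of 0.341. The blocked fits thus called 2 and 1 of the 8 probe sets, beside 7.01% and 4.62% of all tested. The difference between the 2 trainings is the interaction, which did not pass for either gene.

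The training comparison asks whether coupling tone and shock left a different mark from presenting them apart. No probe set of these genes differed between paired and unpaired rats, and 0% of all 18625 tested probe sets did. At an unadjusted p under 0.05 there were 0 of the 8 and 214 of all. The differences of the 8 ran from -0.48 for Smad7 (1368898_at) to 0.42 for Tgfb3, with SEs from 0.22 to 0.59. For Tgfbr1 the difference was 0.01 ± 0.25 (SE), with a 95% interval from -0.55 to 0.57, so that a doubling lies outside it. For Tgfb2 (1387172_a_at) it was -0.08 ± 0.38 (SE), from -0.95 to 0.78.

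Within control rats and within epileptogenic rats the training contrast called 0 of the 8 probe sets and 0% of all tested. None of the 8 had an unadjusted p under 0.05 there, the smallest being 0.369 and 0.261. The interaction, which tests whether the effect of stimulation differed between trainings, was 0.27 ± 0.50 (SE; 95% interval -0.85 to 1.39) for Tgfbr1 and -0.48 ± 0.77 (SE; -2.21 to 1.25) for Tgfb2. It called 0 of the 8 and 0% of all tested, with 0 of the 8 and 274 of all at an unadjusted p under 0.05. These wide intervals leave room for interactions as large as the stimulation difference of Tgfb2 itself.

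The other genes of the pathway were taken from 7 lists with 130 entries, of which 114 had a probe set and 90 were tested on their brightest one. Of the 90, 9 rose after stimulation, 0 fell, and 64 had a difference above 0, with a median of 0.25 beside -0.11 over all tested probe sets. Of all tested probe sets 3.63% passed and 2.81% passed and were higher. These sets are unlike: the 90 are the brightest probe sets of their genes, in lists chosen with earlier results of these data known. With the filter at the 60th percentile, which keeps brighter probe sets, 720 of 12417 passed and 519 of them were higher. With the letter as a block 20 were higher and 4 lower, where 16.2% of all passed and 7.58% passed and were higher. In 4 of the 90, Bmp4, Itgb3, Tgfbi and Bhlhe40, control arrays averaged less than the filter minimum, so that they were tested only because their epileptogenic signal was high and the filter favoured their sign. In Acvr2b, Acvrl1 and Ppm1a the epileptogenic arrays averaged less than that minimum, so the filter favoured the opposite sign. Over the 83 genes with both means above that level, 8 rose, 0 fell and 60 lay above 0, with a median of 0.24. The genes that rose lay in the lists for latent ligand, extracellular binders, nuclear partners, intracellular regulators and target genes.

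Cells store latent ligand in the matrix or on their surface, and integrins release it. In this list 3 of 12 tested genes rose and the median was 0.70, or 2 of 11 and 0.69 without Itgb3. Itgb3, an integrin beta subunit that pairs with the alpha subunit Itgav, rose by 2.58 ± 0.45 (SE; adjusted p = 0.0178 in limma), but it was tested only through its epileptogenic arrays, since its control mean was under the filter level. Nrros, which anchors latent TGF-beta on microglia, rose by 1.57 ± 0.27 (SE; adjusted p = 0.0164), and Itgb1 by 1.21 ± 0.24 (SE; adjusted p = 0.0267). The list depended on single arrays: 0 genes passed without epileptogenic unpaired B, 0 without epileptogenic paired B, and 1 without epileptogenic paired A.

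Extracellular binders hold or block the free ligand, and 2 of the 9 tested rose. Bgn, the proteoglycan biglycan, rose by 1.76 ± 0.32 (SE; adjusted p = 0.0201). A2m, a plasma-type protease inhibitor that also traps cytokines, rose by 1.57 ± 0.20 (SE; adjusted p = 0.00485). A2m passed in all 8 fits that leave out 1 array and Bgn in 4 of them; the list kept 1 gene without control unpaired A, control paired A, epileptogenic unpaired B or epileptogenic paired A.

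Of the other Smads and nuclear partners, 1 of 11 tested rose, and all 11 differences were above 0, with a median of 0.24. Runx1, a transcription factor that cooperates with Smads, rose by 1.67 ± 0.24 (SE; adjusted p = 0.00762) and passed in all 8 fits that leave out 1 array. Its other probe set, 1368914_at, gave 0.76 with an adjusted p of 0.344. Among 19 intracellular regulators Pias1, a SUMO ligase, rose by 0.93 ± 0.21 (SE; adjusted p = 0.0440). It passed in 1 of the 8 fits that leave out an array, without epileptogenic unpaired A, and its other probe set, 1382191_at, gave -0.19.

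The list of textbook target genes of TGF-beta and Smad3 had 20 tested members, of which 2 rose and 18 lay above 0, with a median of 0.78. Without Tgfbi and Bhlhe40 it was 2 and 16 of 18, with a median of 0.84. Vim, an intermediate filament protein of astrocytes and mesenchymal cells, rose by 2.10 ± 0.32 (SE; adjusted p = 0.0100), and Timp1, which inhibits matrix-degrading enzymes, by 1.47 ± 0.30 (SE; adjusted p = 0.0308). Vim passed in all 8 fits that leave out 1 array and Timp1 in 1 of them. With the letter as a block 9 of the 20 were higher and 1 lower. In that fit 16.2% of all tested probe sets passed, and 7.58% passed and were higher. Many of these genes answer to other signals too. Vim is also in the astrocyte marker list, Acta2 in that of mural cells, and Col1a1, Col1a2 and Col3a1, which are among the 9, in that of meninges and fibroblasts.

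No gene passed in the lists of other ligands (9 tested, median 0.01) or other receptors (10 tested, median -0.04). The receptor median was 0.011 after quantile normalization and 0.070 with each array centred on its median, so its sign depends on the scaling. Their smallest p belonged to Bmp4, a bone morphogenetic protein, at 1.24 ± 0.49 (SE; adjusted p = 0.211; control mean under the filter level) and Inha, an inhibin subunit, at -0.79 ± 0.40 (SE; adjusted p = 0.333). Among receptors they belonged to Acvr2b, an activin type II receptor, at -1.47 ± 0.41 (SE; adjusted p = 0.0883), and Bmpr1a, a bone morphogenetic protein type I receptor, at 0.81 ± 0.28 (SE; adjusted p = 0.167). The 4 control arrays of Acvr2b lay between 5.17 and 5.22 and its epileptogenic arrays between 3.12 and 4.29, so the groups did not overlap, but every epileptogenic value was under the filter level. Acvr2b was thus tested only because its control signal was high, and the filter favoured its sign. With the letter as a block 3 of the 10 receptors passed, while 16.2% of all tested probe sets did. Bmpr1a was higher and Acvr2b and Rgmb lower, with adjusted p of 0.0205, 0.0331 and 0.0172 in limma. Rgmb, a bone morphogenetic protein co-receptor, differed by -0.50 and is named because of that count.

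**Figure D4:**
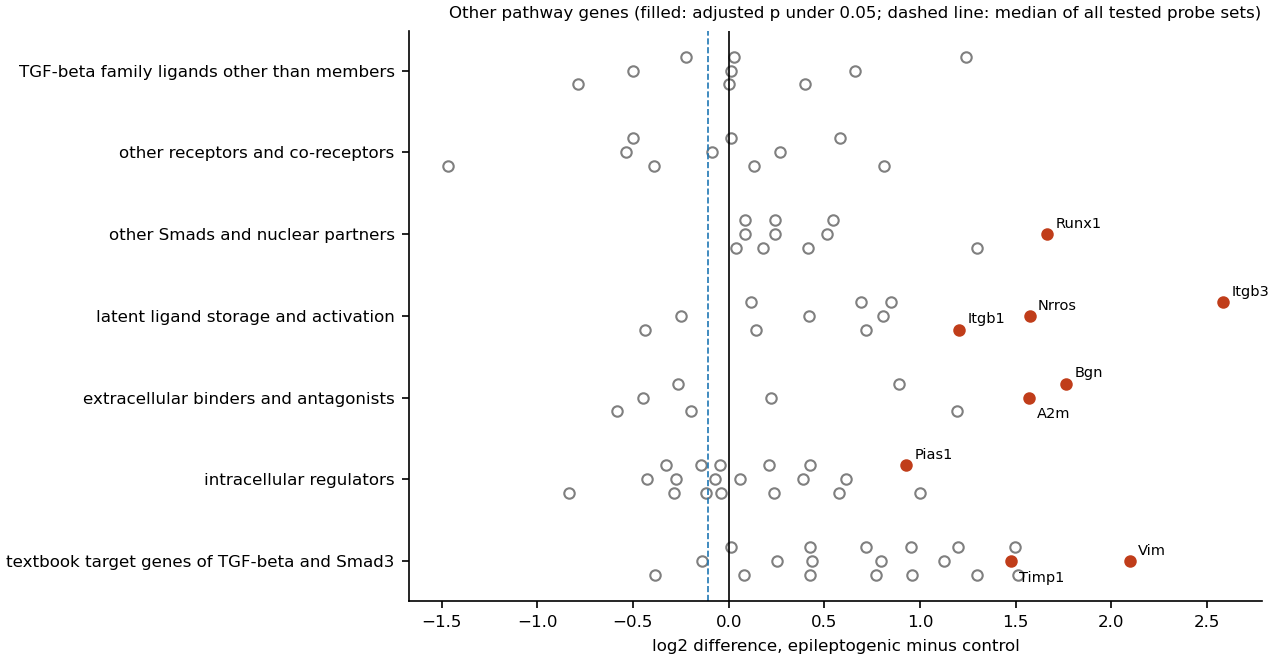
Log2 difference, epileptogenic minus control, of the 90 tested genes of the 7 pathway lists, 1 point per gene (vertical offsets only separate the points). Filled points are the 9 genes with an adjusted p under 0.05, all to the right of 0; the dashed line is the median of all tested probe sets at -0.11.

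Between paired and unpaired rats 0 of the 90 genes passed. An unadjusted p under 0.05 in limma was reached by 4, beside 214 of all 18625 tested probe sets. All 4 were lower after paired training, and 3 of them lay in the list of binders. A2m differed by -0.77, Bgn by -0.83 and Postn, a matrix protein, by -1.11. The fourth, the proteoglycan Dcn, differed by -1.43 and is named because of its value. For the interaction 0 of the 90 had an unadjusted p under 0.05.

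Cell type markers moved between the same groups as Tgfbr1. Beside the counts below, 3.63% of all tested probe sets passed, and 2.81% passed and were higher. Of 9 tested markers of microglia and macrophages 7 rose, among them Csf1r, P2ry12 and C1qa (6 of 8 without Cd68, whose control mean was under the filter level), and the summed signal of the list ran from 835 to 1218 in control and from 3992 to 6567 in epileptogenic arrays. Cx3cr1 was not higher (a difference of -0.40), and Itgam was too dim to test. Of 7 astrocyte markers 3 rose, Gfap, Aqp4 and Vim, and the sums, 13005 to 23177 and 19290 to 24813, overlapped. Each sum adds unlogged signals, so the brightest marker of a list weighs most. For astrocytes that was Gja1, which differed by 0.09. No marker of endothelium (7 tested) or mural cells (5 tested) passed. Their summed signals did not overlap, at 1421 to 1767 against 1800 to 2422, and 213 to 228 against 267 to 326. Among single probe sets, 15.1% of all tested did not overlap, and 7.29% did so with higher epileptogenic signal. The brightest endothelial marker, Slco1a4, differed by 0.53 (adjusted p = 0.132 in limma).

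Of 6 tested markers of excitatory amygdala neurons 2 fell, Neurod6 and Lmo3, and the sum ran from 4306 to 5880 in control and from 2328 to 3939 in epileptogenic arrays. Among all tested probe sets 3.63% passed in either direction, 2.81% passed and were higher, and 15.1% did not overlap. The brightest marker of this list, Etv1, differed by -0.64 and did not pass (adjusted p = 0.229 in limma). Slc17a7 and Slc17a6, the vesicular glutamate transporters that define such neurons, averaged above the filter level in both conditions. They differed by -0.85 and -1.13 and did not pass (adjusted p = 0.341 and 0.0951 in limma). Slc17a7 averaged 4.58 in epileptogenic arrays, near the filter level of 4.35. Of the 6 markers, 0 had a difference above 0. Rspo2, a marker of the basolateral nuclei, had no probe set. A further list with a called gene was that of oligodendrocytes (1 of 5, Aspa), whose sums were 5173 to 6427 against 6689 to 14959. Of 5 tested markers of central amygdala and striatal neurons 0 passed. Their sums were 2174 to 3752 in control and 1404 to 4032 in epileptogenic arrays. Penk, the brightest, averaged 10.95 and 10.84. Of 3 tested interneuron markers 0 passed, and sums over the 5 of that list were 3337 to 5011 and 1889 to 4339. Of 6 tested markers of meninges and fibroblasts none passed, with Lum at 1.95 (adjusted p = 0.0533 in limma) and Col1a1 at 1.51 (adjusted p = 0.0574). Sums over the 7 markers of that list were 1184 to 1268 in control and 1138 to 2678 in epileptogenic arrays, highest on epileptogenic unpaired B. The brightest marker there, Pdgfra, differed by -0.006. The list shares Dcn with the binders and 3 collagens with the target genes. Sums for the choroid plexus, a tissue beside the temporal horn, varied from 169 to 5127 among control and from 327 to 4932 among epileptogenic arrays. In RNA from whole tissue, more or fewer cells of a type and more or less RNA per cell cannot be told apart. The part of each of these cell types in the results for Tgfbr1 and the pathway genes was not tested.

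The control probe sets for the 3′ and 5′ ends of 2 transcripts were compared as a sign of RNA quality. The RNA had been amplified in 2 rounds, so RNA quality and amplification cannot be told apart in these values. The log2 excess of the 3′ end for Gapdh was 3.33 to 3.69 in control and 3.09 to 4.19 in epileptogenic arrays, which overlap. Within each letter they did not: A arrays read 3.35 and 3.52 in control against 4.00 and 4.19, and B arrays 3.33 and 3.69 against 3.09 and 3.22. The excess was thus higher after stimulation in A and lower in B. The stimulation differences of Smad3 and of both tested Smad7 probe sets also changed sign between letters. Smad7 1368898_at did so in the opposite direction, lower in A and higher in B. For actin it was 1.87 to 3.63 in A and 3.82 to 4.45 in B arrays. The letters thus did not overlap. The part of RNA quality or amplification in the results for Smad3, Tgfb2 and the other genes was not tested.

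**Figure D5:**
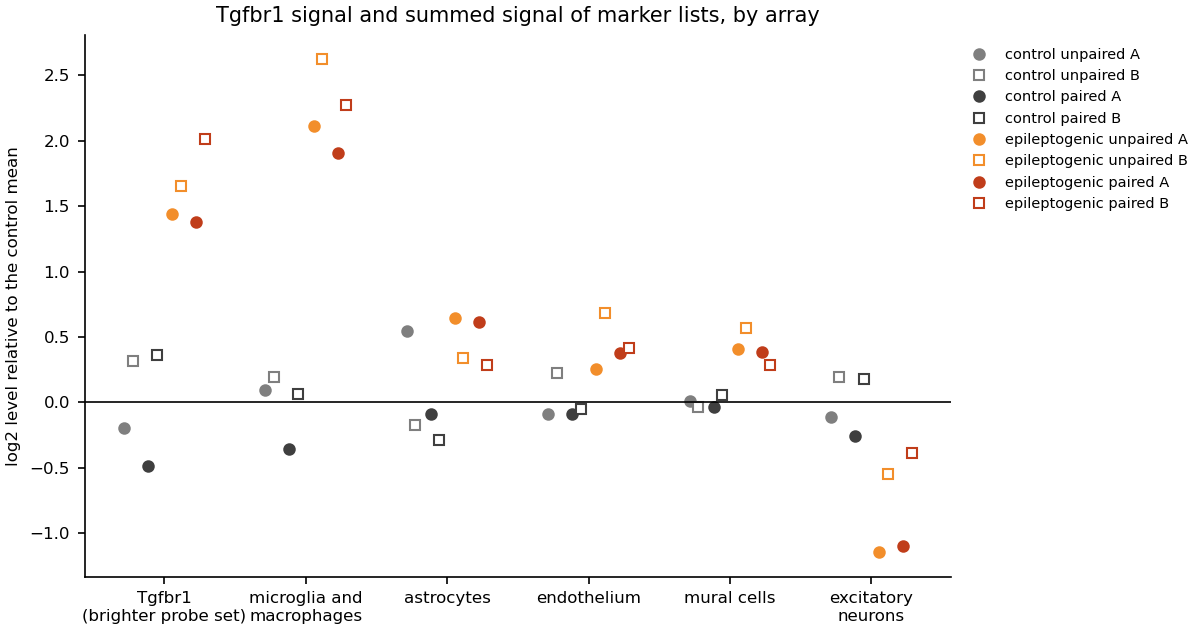
Log2 level on each array relative to the mean of the 4 control arrays, for Tgfbr1 (1376636_at) and for the summed signal of 5 marker lists; filled circles are replicate A and open squares replicate B. Tgfbr1 lies between 1.38 and 2.01 in epileptogenic arrays, microglia and macrophage markers between 1.90 and 2.62, and excitatory neuron markers between -1.15 and -0.39. Sums add unlogged signals, so the brightest marker of a list weighs most.

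Genes whose log2 signal followed that of each tested gene most closely over the 8 arrays were listed among 10363 named genes, as a description: the arrays share groups and letters, so high correlations are common. For Tgfbr1 they were Rin2 (Pearson r of 0.996), Golm1 (0.989) and Adamts4 (0.987), whose own differences after stimulation were 1.76, 2.32 and 1.28, all past the threshold. For Tgfb2 they were Nras (0.984), Ccnd1 (0.983) and Pm20d2 (0.982), none of which passed. For Smad2 they were Prdx4 (0.996), Tead1 (0.983) and Bcap31 (0.978), and for Tgfb3 Ywhaq (0.986), Sub1 (0.981) and Tmem158 (0.970). Smad7 (1368898_at) was followed most closely by Gcdh (0.986), Maz (0.986) and Sgsm1 (0.980), and Smad3 by Sobp (0.953), Lrrc51 (0.926) and Or13p4 (0.906).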

How the data were processed

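RNA was measured on 8 arrays, with 30 ng of RNA per rat amplified in 2 rounds before 2 rats were pooled per array. The deposited signal intensity was made by the authors with MAS5, per the labels, and its version and scaling target are not given in the sources used here. They were used as log2 without another normalization step. Of 31099 probe sets, 57 controls were dropped, and 18625 whose log2 signal averaged over the 40th percentile (4.35, a signal of 20.3) were tested. Genes were named where the annotation gave 1 symbol.

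The test was limma 3.58.1 (R 4.3.3) with 4 group means and a prior variance that follows intensity. It was two-sided, and p-values were adjusted by the Benjamini-Hochberg method over all 18625, with a threshold of 0.05. The SDs are between arrays and the SEs from this fit. The labels call the arrays biological replicates; pools were of 2 rats, so p-values measure the spread between pools. Letters A and B deviated together in all 6 pairs of groups (correlations of 0.321 to 0.407) and were treated as pairing the arrays in an alternative fit. What the letters stand for is not given. The test was checked on simulated data with independent errors between arrays. Those data lack the shared deviations of a letter, so the check does not cover them.

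The genes, lists, markers and motifs were chosen with earlier results of these data known. All probe sets of the 9 genes are reported. A gene was read by its brightest probe set; of each list the genes that passed (at most 6 by size), or the 2 of smallest p, were named, and for each gene read the 3 genes of highest correlation. Alternatives were quantile normalization, centring on the median, an offset of 16, no filter, a filter at the 60th percentile, no trend, the letter as a block, each letter alone, averaging the tested probe sets of a gene, and omitting each array. Averaging all probe sets of a gene was added after seeing the data. Promoter stretches came from RefSeq (GRCr8). Detection calls were not used here. Figures were drawn with matplotlib 3.10.9.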

Additional observations from a re-analysis of the deposited data

Results flagged for a closer look

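On the Smad7 probe set 1368896_at, the epileptogenic unpaired B array read 4.63 log2 units, apart from the other 3 epileptogenic arrays, which lay between 4.91 and 4.95. It was the 1 of 28 sets of 4 arrays in which Dixon's test singled out an array, and chance alone singles out about 1 in 20 sets. The gap is small beside the spread of the control arrays, whose SD was 0.93.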

How the results depend on the processing

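The rise of Tgfbr1 (1376636_at) after stimulation kept its direction and its adjusted p under 0.05 under every alternative with a test but one, with values from 1.41 to 1.83. Averaging tested probe sets leaves Tgfbr1 as it is, since it has 1. The mean of all its probe sets, added after seeing the data, gave 0.50 and an adjusted p of 0.468; for Smad3 that mean was -0.20 and for Smad7 -0.097. The adjusted p was 0.0454 with each array centred on its median and 0.0481 without epileptogenic unpaired B. With the replicate letter as a block 2 of the 8 probe sets passed after stimulation, against 1, 2 after unpaired training, against 0, and 1 after paired training, against 0. The block changed no other member call. Over all probe sets it moved the count from 677 to 3022, of which 46.7% were higher, against 77.3%. Centring gave 389 calls, 96.9% of them higher, with the median of all probe sets moved from -0.11 to -0.01. Leaving out the trend gave 330, and leaving out 1 array 224 to 435. The stricter filter tested 4 of the 8.

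The sign changed for values that never passed. Between paired and unpaired rats Tgfbr1 was -0.025 after quantile normalization and -0.17 within the A arrays, and Tgfb2 was 0.0058 after centring. Within the B arrays the stimulation differences were -0.37 for Smad3, -0.038 for Smad7 1368896_at and 0.051 for 1368898_at. With probe sets averaged, that of Smad7 was 0.025 and the interaction of Tgfb2 0.057. The cause was not tested. Leaving out 1 array gave stimulation differences from 0.34 to 0.95 for Tgfb2 1387172_a_at, -0.40 to 0.15 for Tgfb2 1388011_a_at, -0.15 to 0.18 for Smad3, -0.040 to 1.07 for Smad7 1368896_at and -1.08 to 0.15 for 1368898_at. It gave training differences from -0.20 to 0.23 for Tgfbr1 and -0.39 to 0.22 for Tgfb2, and interactions from -0.15 to 0.70 and from -1.10 to 0.13. Of 650 alternative values of the 44 other member differences, 53 changed sign, 0 of them of a called value. With 2 arrays a group, the number of arrays limits the precision.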
